A study of Mus musculus with 22 samples.

Results

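Collagens are the main structural proteins of the extracellular matrix, and the mouse collagen genes are read here as every row of the count tables whose gene name has the form Col, a type number, a and a chain number. The rule found 44 genes of the 55376 counted. They were sorted by the class their proteins are known for: 8 fibrillar genes, 8 of basement membranes, 7 of cartilage and 21 others. Cartilage here names the tissue the class is best known from, not the source of the cells.

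RNA was sequenced from cells sorted from the spinal cord of mouse embryos at E12.5, a stage of mid-gestation. Motor neurons were sorted by an ISL1 GFP reporter and endothelial cells, which line blood vessels, by a Kdr Cherry reporter. One set of libraries, the knockout series, holds both cell types of WT (wild-type) and of Plxnd1 knockout embryos, from cord with its meninges, the membranes around it, still attached; Plxnd1 is a receptor for semaphorins. A regional series holds endothelial cells of WT embryos alone, from the cord tissue itself (spinal) or from the meninges, in 5 batches each. Spinal batches 1 to 3 held ventral cord and batches 4 and 5 whole cord. Embryos were pooled by genotype, no treatment other than the sort is named, and which part of Plxnd1 was deleted is not given in the sources used here. Nothing says that the libraries came from separate litters, so a p-value here reflects only how far these libraries spread, which may be technical.

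The file of wild-type endothelial batch 2 held the same counts as knockout batch 1 in all genes and was not used. The other 21 of the 22 libraries were 2 wild-type and 3 knockout endothelial, 3 wild-type and 3 knockout motor neuron, 5 spinal and 5 meningeal. Totals were 20680902 to 27035395 counts per knockout-series library and 15685784 to 21493255 per regional library. The 2 series were counted with different strand settings, so no level is compared between them. In knockout endothelial cells Plxnd1 fell by 3.04 ± 0.11 (log2, SE; edgeR adjusted p = 5.52e-15 with batch as a block, 0.161 without), and in knockout motor neurons it fell by 3.0 ± 0.20 (0.000135 with the block, 0.8 without). Markers of other cell types were present in the sorted libraries. Isl1 was at 192, 274 and 126 CPM in the wild-type motor neuron libraries and 267, 291 and 130.1 CPM in the knockout ones. Besides Kdr (265 and 161 CPM, read counts scaled to a common library size by TMM), the wild-type endothelial libraries of the knockout series held the fibroblast gene Pdgfra at 348 and 365 CPM and all 13 markers of mesenchyme and meningeal fibroblasts at 1 CPM or more. The part of such cells in the collagen levels was not tested, and in sorted bulk samples fewer cells of a type and less RNA per cell cannot be told apart.

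A collagen is a helix of chains wound around each other, which can come from a single gene or from several. Collagens of the fibrillar class used here (types I, III, V, XXIV and XXVII) assemble into the cable-like fibrils of connective tissue. They are mostly made by fibroblasts and related mesenchymal cells. Type IV collagen forms the sheet-like network of basement membranes, which underlie vessels and enclose the nervous system; types XV and XVIII (multiplexins) are basement membrane collagens with heparan or chondroitin sulfate chains, and the end of type XVIII can be released as endostatin. Types II, IX and XI build cartilage fibrils, and type VI forms beaded filaments that link cells to the matrix. Types II and XI are fibrillar too, but their genes Col2a1, Col11a1 and Col11a2 were placed here in the cartilage class only.

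Several collagen genes lie side by side. Of the 44 genes, 9 pairs lay within 300 kb of each other, and 3 of these pairs stood head to head, each pair of type IV genes. The annotated starts of Col4a1 and Col4a2 lay 21 bases apart, with the 2 genes overlapping there. Those of Col4a3 and Col4a4 lay 127 bases apart, and those of Col4a5 and Col4a6, on chromosome X, 1309 bases apart. Promoter windows from RefSeq (GRCm38.p6, 250 bases before to 50 after the start) matched 35 of the 44 genes, with 38 windows. The stretches before the start sites of Col4a5 and Col4a6 are shown because this pair fell together in spinal endothelial cells while the other head-to-head pair Col4a1 and Col4a2 did not pass, and those of Col1a2 and Col3a1 because these fibrillar genes fell the most there. Each runs 5′ to 3′ on the strand of its gene and stops before the first annotated exon: chrX:141475169-141475384 (plus strand) for Col4a5, chrX:141474077-141474326 (minus) for Col4a6, chr6:4505368-4505492 (plus) for Col1a2 and chr1:45311288-45311537 (plus) for Col3a1. Capitals mark a CCAAT box (CCAAT), a GC box (GGGCGG) or a TATA box (TATAAA), on either strand.
Col4a5: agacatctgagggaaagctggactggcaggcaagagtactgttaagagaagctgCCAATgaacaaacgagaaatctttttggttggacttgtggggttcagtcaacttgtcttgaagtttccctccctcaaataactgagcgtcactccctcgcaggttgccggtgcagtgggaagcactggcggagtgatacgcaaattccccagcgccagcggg
Col4a6: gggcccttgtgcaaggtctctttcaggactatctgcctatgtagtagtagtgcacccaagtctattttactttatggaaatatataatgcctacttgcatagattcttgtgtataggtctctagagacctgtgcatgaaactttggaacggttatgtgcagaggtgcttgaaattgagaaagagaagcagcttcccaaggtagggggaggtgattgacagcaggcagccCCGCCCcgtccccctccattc
Col1a2: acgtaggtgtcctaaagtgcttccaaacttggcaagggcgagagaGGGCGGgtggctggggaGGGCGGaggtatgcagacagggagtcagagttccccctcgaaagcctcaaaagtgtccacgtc
Col3a1: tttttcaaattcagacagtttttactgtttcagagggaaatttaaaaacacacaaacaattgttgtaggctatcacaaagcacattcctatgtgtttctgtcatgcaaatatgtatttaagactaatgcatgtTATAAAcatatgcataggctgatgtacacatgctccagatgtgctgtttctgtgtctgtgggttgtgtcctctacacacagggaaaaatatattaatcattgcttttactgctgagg
Only the Col3a1 stretch of the 4 held TATAAA, and the printed stretches of Col4a5 and Col4a6 shared no motif. The whole windows of both genes held a GC box, that of Col4a5 beyond the printed stretch. The whole window of Col1a2 held 2 CCAAT boxes, beyond its printed stretch of 125 bases. Over whole windows and both strands, GGGCGG was found in 60.5% of the 38 collagen windows and 35.7% of all 32851 windows, CCAAT in 34.2 and 37.4%, and TATAAA in 13.2 and 13.6%. These are matches of letters and not measured binding sites.

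In every endothelial group except the spinal one the leading collagen was Col3a1, the only chain of type III. Per kilobase of exon, wild-type endothelial cells of the knockout series had Col3a1 at 1069, Col1a2 at 755, Col4a1 at 485, Col1a1 at 483 and Col4a2 at 284 CPM per kb. The spinal group led with Col4a1 (666) and Col4a2 (394 CPM per kb), ahead of Col3a1 (145). Wild-type motor neurons led with Col9a3, a chain of type IX, at only 25.9 CPM per kb, followed by Col1a2 at 9.59. No collagen had a group mean of 100 CPM or more in motor neurons, against 23 in wild-type and 24 in knockout endothelial cells of the same series. In the regional series 22 had such a mean in meningeal and 11 in spinal cells. Col6a4, Col10a1, Col17a1 and Col19a1 stayed below a mean of 1 CPM in every group; Col10a1, the collagen of hypertrophic cartilage, had 10 counts in all 21 libraries together.

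By class, fibrillar genes summed to 14753 ± 183 CPM in wild-type (SD, n = 2) and 15564 ± 1752 CPM in knockout endothelial cells (n = 3), and to 168 ± 88.1 and 179 ± 45.4 CPM in the motor neurons (n = 3 each). Basement membrane genes summed to 6876 ± 376 and 6479 ± 876 CPM in endothelial cells and to 115 ± 40.8 and 114 ± 24.9 CPM in motor neurons. Cartilage genes were the class nearest in level between the cell types, at 707 ± 125 and 1025 ± 165 CPM against 234 ± 38.0 and 218 ± 13.5 CPM. They took 38.8% ± 7.70 of the collagen counts in wild-type motor neurons and 2.71% ± 0.474 in wild-type endothelial cells, and the ranges of the 2 cell types did not overlap. Within each cell type the ranges of knockout and wild-type sums overlapped in every class except the cartilage class of endothelial cells, at 619 to 796 CPM in wild type and 834 to 1127 CPM in the knockout.

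**Figure D1:**
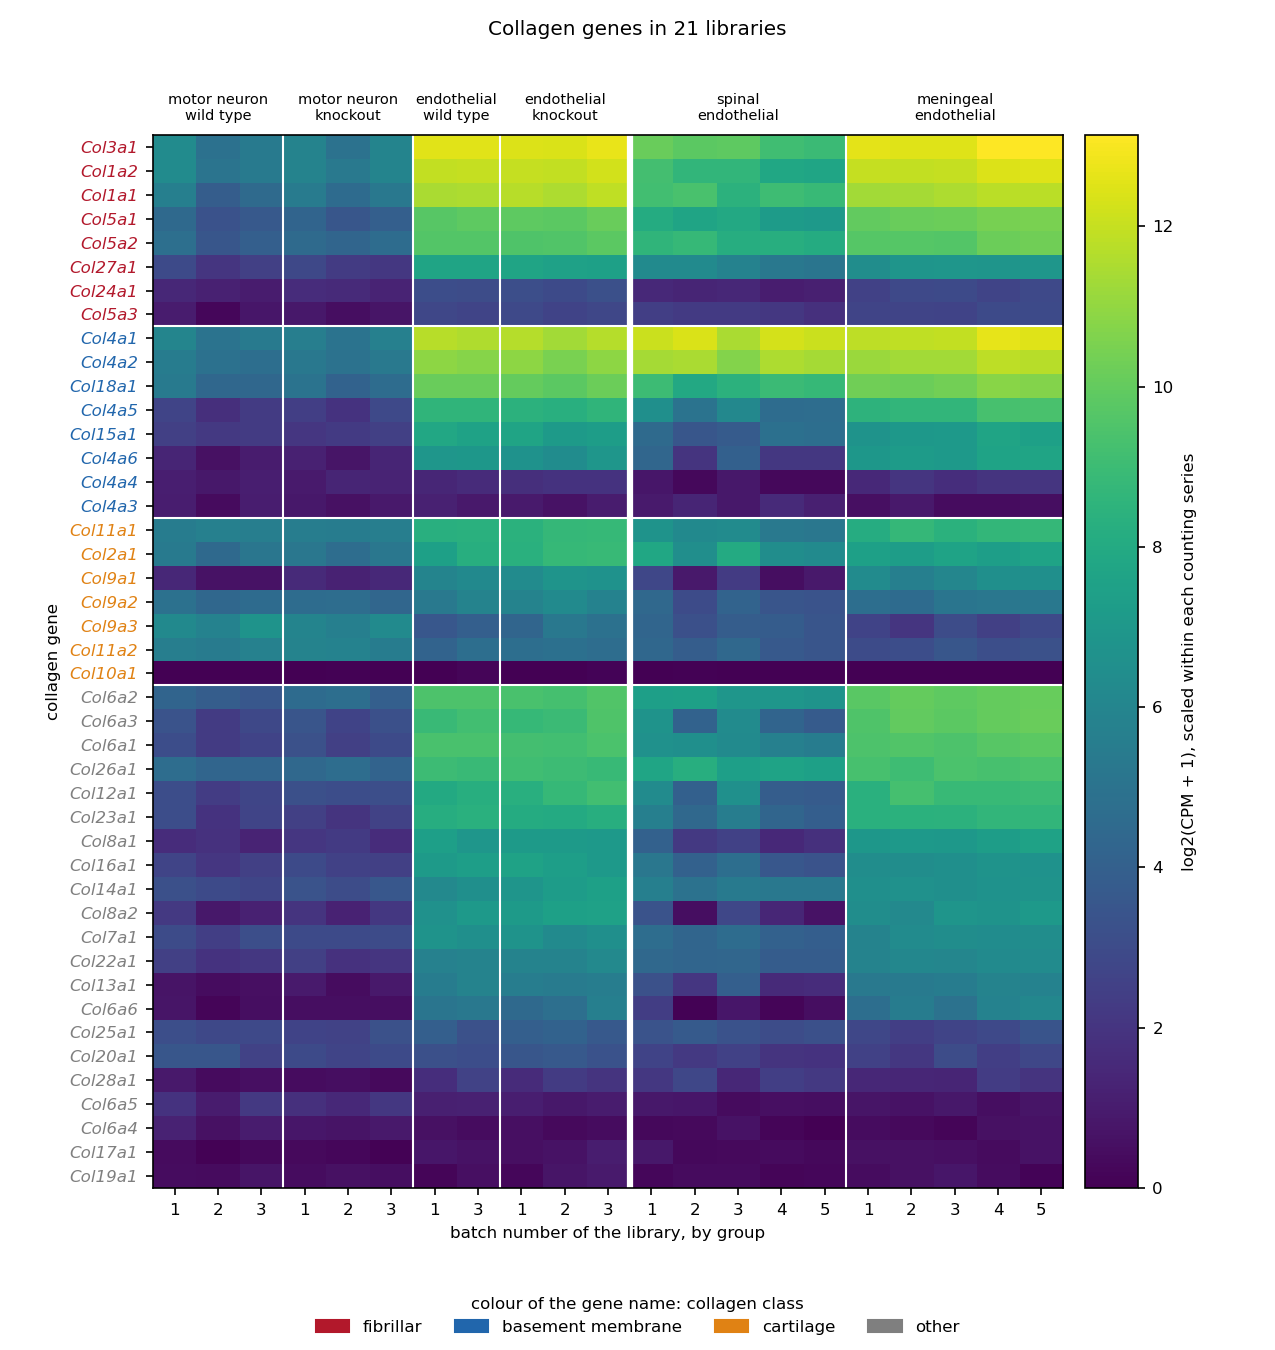
Level of each of the 44 collagen genes (rows, gene names coloured by class; cell colour is log2 of CPM + 1) in each of the 21 libraries (columns, by group and batch). The motor neuron columns are dark for most genes, and in the spinal columns the fibrillar rows are dimmer than in the meningeal columns while Col4a1 and Col4a2 stay bright.

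The first comparison set wild-type endothelial cells against wild-type motor neurons. Of the 43 collagens tested 38 differed, 35 higher and 3 lower in endothelial cells, where 64.8% of all genes tested differed (33.8% higher, 31% lower; edgeR, adjusted p under 0.05). The median log2 fold change was 5.37 over the collagens and 0.02 over all genes. All 8 genes of the fibrillar class were higher, as were 7 of 8 basement membrane genes, 4 of the 6 cartilage genes tested and 16 of the 21 others. Col9a3, Col11a2 and Col6a4 were lower. In 36 collagens every endothelial library lay above every motor neuron one, and in 3 below, where 40.6 and 38.4% of all genes did.

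Fibrillar genes were far apart between the cell types. Col3a1 was at 5988 and 5903 CPM in endothelial and 79.7, 29.3 and 41.0 CPM in motor neuron libraries, a log2 fold change of 6.89 ± 0.46 (SE; edgeR adjusted p = 5.93e-07). Both chains of type I, Col1a1 and Col1a2, differed by 6.66 ± 0.50 and 6.30 ± 0.38. Col5a1 and Col5a2, chains of type V, which helps to start fibrils, differed by 6.01 ± 0.35 and 5.48 ± 0.34. The least abundant genes of the fibrillar class differed less: Col24a1 by 2.47 ± 0.25 and Col5a3 by 3.14 ± 0.45. No library of either cell type overlapped the other in any gene of the class.

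Among basement membrane genes, Col4a1 was at 3368 and 3043 CPM in endothelial against 63.1, 30.9 and 39.7 CPM in motor neuron libraries (6.17 ± 0.34, adjusted p = 1.72e-07), and its partner Col4a2 differed by 5.79 ± 0.26. Col4a5 and Col4a6 had the same wide gap (6.60 ± 0.36 and 6.85 ± 0.35), as did the multiplexins Col15a1 (5.72 ± 0.21) and Col18a1 (5.38 ± 0.35). The kidney-type chains stood apart from these. Col4a4 was at 1.67 and 2.05 against 1.15, 0.816 and 1.17 CPM (0.82 ± 0.29, adjusted p = 0.0285), and Col4a3 at 1.31 and 0.864 against 1.06, 0.288 and 1.09 CPM did not pass (0.40 ± 0.51, 0.505).

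The cartilage class split within a single protein. Type IX is built from the products of Col9a1, Col9a2 and Col9a3. Col9a1 was at 60.2 and 73.6 CPM in endothelial and 1.76, 0.576 and 0.544 CPM in motor neuron libraries (6.09 ± 0.36), while Col9a3 ran the other way, at 10.7 and 14.7 against 74.3, 55.7 and 107 CPM (-2.64 ± 0.36, adjusted p = 9.45e-05). Every motor neuron library lay below every endothelial one in Col9a1 and above it in Col9a3. Per length, Col9a1 counts were 1.02 ± 0.136 times those of Col9a2 in endothelial cells (SD, n = 2) and 0.0267 ± 0.0145 times in motor neurons (n = 3); for Col9a3 the ratios were 0.257 ± 0.0126 and 3.16 ± 1.07. Col11a2, a type XI chain, was also higher in motor neurons (17.4 and 26.2 against 49.0, 42.6 and 54.1 CPM; -1.15 ± 0.18, adjusted p = 2.46e-04), whereas Col11a1 (2.72 ± 0.12) and Col2a1 (2.86 ± 0.31), the chain of type II, were higher in endothelial cells. The Col9a3 gene overlaps Tcfl5 on the other strand and these libraries were counted without regard to strand, so reads of the pair cannot be fully told apart; Tcfl5 itself was counted at 2.39 CPM in motor neurons and 1.48 CPM in endothelial cells.

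Of the other collagens, type VI was higher in endothelial cells in Col6a1 (6.85 ± 0.31), Col6a2 (5.64 ± 0.26), Col6a3 (6.35 ± 0.38) and Col6a6 (6.34 ± 0.45). Its later chains Col6a4 (0.497 and 0.360 against 1.35, 0.528 and 1.01 CPM; adjusted p = 0.0353) and Col6a5 (1.21 and 1.30 against 2.82, 1.01 and 3.52 CPM; 0.0876) were near the limit of what was counted. Col13a1 and Col23a1, which span the cell membrane, differed by 6.75 ± 0.29 and 5.84 ± 0.33, and Col8a1 and Col8a2, the chains of the short-chain type VIII of vessels and the eye, by 6.11 ± 0.25 and 5.92 ± 0.46. Col12a1, which binds along fibrils, differed by 5.59 ± 0.29.

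Col25a1, a membrane collagen that motor axons need to reach muscle, did not lead in motor neurons. It was at 14.8 and 8.53 CPM in endothelial and 7.94, 6.29 and 6.58 CPM in motor neuron libraries (0.75 ± 0.29, adjusted p = 0.0404). With batch as a block the difference no longer passed (0.71, adjusted p = 0.0718; Col6a5 then passed as lower, at -1.15 and 0.0128), nor without wild-type endothelial batch 1 (0.30, 0.463), knockout endothelial batch 1 (0.75, 0.0537), or wild-type motor neuron batch 2 (0.68, 0.1) or 3 (0.71, 0.0954). The adjusted p ranged from 0.0124 to 0.463 over all alternatives.

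Summed over a class, motor neuron libraries held 1.14% of the endothelial level for fibrillar genes, 1.68% for basement membrane genes, 2.80% for the others and 33.1% for cartilage genes. The same ratio was 2.20% for 10 endothelial markers, 2.20% for 9 mural markers, 1.22% for 6 macrophage markers and 0.551% for 5 red cell markers. Other lists were higher: 59.0% for 9 cartilage, 35.2% for 7 glia and Schwann cell and 30.4% for 5 radial glia markers. Muscle and liver markers were at 17.2 and 125%, but summed to only 4.48 and 1.09 CPM in wild-type endothelial cells. The 13 mesenchyme markers summed to 18.5%, held up by Zic1 at 58.2%, Crabp2 at 319% and Aldh1a2 at 13.6%, while Pdgfra stood at 1.48%, Dcn at 0.980% and Lum at 0.561%. The part of other cells in the collagen levels of motor neurons was not tested. Single genes ranged widely within the classes: Col3a1 stood at 0.841% and Col4a1 at 1.39% of the endothelial level, but the fibrillar Col24a1 at 18.0% and Col5a3 at 11.1%, and Col4a3 at 74.7% and Col4a4 at 56.2%. Col9a3 stood at 623%, Col11a2 at 222%, Col20a1 at 111%, Col25a1 at 59.5% and Col9a2 at 50.7% of the endothelial level.

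Genes for making, processing, binding and removing collagen followed the same side. Of 58 such genes tested, 48 were higher in endothelial cells, 4 lower and 6 did not pass (median 3.18). Of all genes tested 33.8% were higher and 31% lower. Serpinh1, the collagen chaperone HSP47, was at 1463 ± 75.2 against 45.8 ± 11.9 CPM (5.0 ± 0.19, adjusted p = 2.66e-08). The transcription factor gene Creb3l1 (6.23 ± 0.20), the lysyl hydroxylase Plod1 (4.17 ± 0.15), the prolyl 3-hydroxylase P3h1 (2.37 ± 0.09) and the gene P3h4 (2.82 ± 0.12) were higher. So were the crosslinking enzyme Loxl1 (5.19 ± 0.21) and the collagen receptors Itga11 (7.52 ± 0.28) and Ddr2 (6.24 ± 0.24).

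The second comparison set spinal against meningeal endothelial cells. Collagens were lower in the cord: of 40 tested, 30 fell and 3 rose, where 47.8% of all genes differed (24.8% higher, 23% lower). The median log2 fold change was -2.16 over the collagens and 0.01 over all genes. Col4a1 and Col4a2, the chains of the common type IV network, were the large exception and did not pass. Col4a3, Col9a3 and Col11a2 rose. In 30 collagens every spinal library lay below every meningeal one, against 17.3% of all genes, and in 1 above, against 19.2%.

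Meningeal libraries held 32605 ± 6222 CPM of collagen in all and spinal ones 10655 ± 1574 (SD, n = 5 each). Fibrillar genes summed to 17206 ± 3440 against 2288 ± 595 CPM, and basement membrane genes to 9813 ± 2324 against 7436 ± 1456 CPM, with ranges of 7842 to 12822 and 4970 to 8545 that overlap. The make-up of the collagen counts therefore differed. Basement membrane genes took 69.5% ± 8.15 of them in spinal libraries (59.1 to 77.6%) and 29.9% ± 1.5 in meningeal ones (28.7 to 32.4%), and fibrillar genes 21.6% ± 5.04 against 52.7% ± 1.18, with no overlap between the groups in either share.

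**Figure D2:**
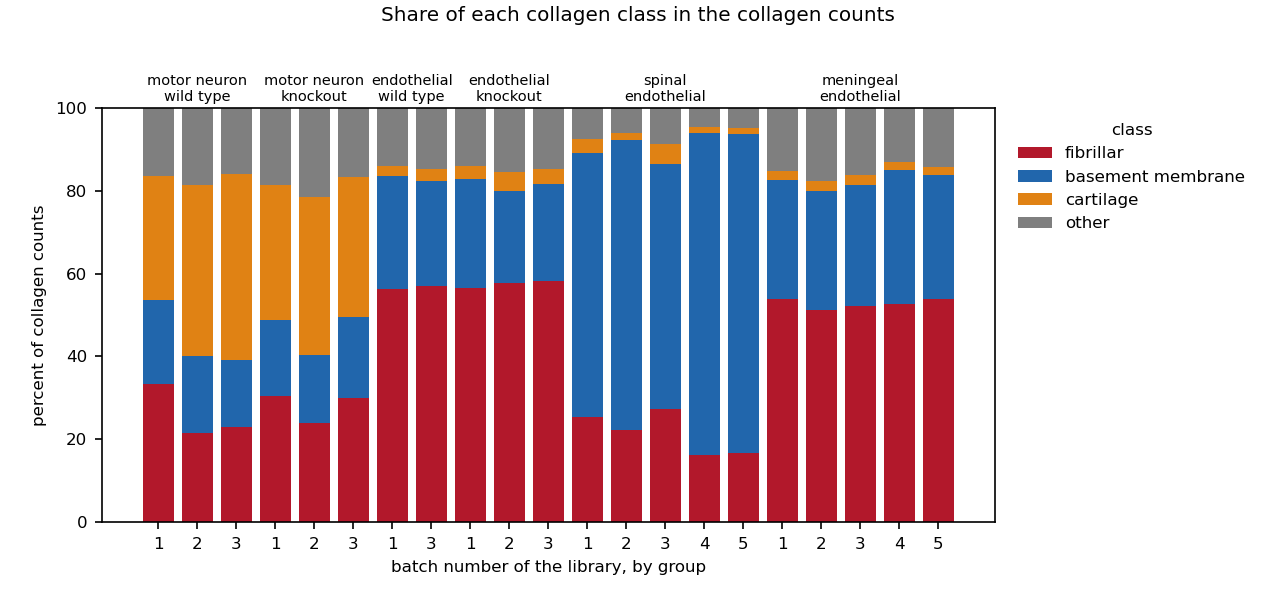
Share of each collagen class in the collagen counts of each library (bars add to 100%; longer genes give more counts). Basement membrane genes take 59.1 to 77.6% of the collagen counts in the 5 spinal libraries and 28.7 to 32.4% in the 5 meningeal ones. Within the knockout series, cartilage genes take a larger share in motor neurons than in endothelial cells.

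Type IV chains fell into 3 pairs along their genes. Col4a1 was at 4394, 5362, 2876, 5031 and 4376 CPM in spinal batches 1 to 5 and 3674, 3784, 3972, 6362 and 5710 CPM in the meningeal batches, a log2 fold change of -0.09 ± 0.22 (edgeR adjusted p = 0.758). Spinal batch 3 was the lowest of the 10, and the other spinal libraries lay within the meningeal range. The value turned to 0.01 without spinal batch 3, to 0.04 without meningeal batch 4 and to 0.11 in batches 1 to 3, while in batches 4 and 5 alone it was -0.37 and passed (0.00371, where the adjusted p ran up to 0.985 over the alternatives). Col4a2 was at 2608, 2841, 1652, 2968 and 2650 against 2333, 2515, 2521, 3634 and 3384 CPM (-0.18 ± 0.20, adjusted p = 0.48; -0.34 and 0.0045 in batches 4 and 5 alone, up to 0.788 over the alternatives). Per length, Col4a1 to Col4a2 stood at 1.69 ± 0.0903 in spinal and 1.58 ± 0.0962 in meningeal libraries. The assembled protein holds more of the former than of the latter.

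Col4a5 and Col4a6, whose promoter stretches are printed above, fell together. Col4a5 was at 92.1, 30.9, 68.6, 23.9 and 25.0 CPM in spinal batches 1 to 5 and 365, 395, 399, 632 and 651 CPM in meningeal ones (-3.34 ± 0.40, adjusted p = 2.29e-05). Col4a6 was at 19.5, 3.0, 15.5, 3.39 and 3.31 against 124, 149, 135, 196 and 202 CPM (-4.17 ± 0.53, adjusted p = 3.49e-05). All 5 spinal libraries lay below all meningeal ones for both genes, and spinal batches 1 and 3 were the highest of the 5. The ratio of Col4a5 to Col4a6 per length was 6.92 ± 2.41 in spinal and 3.05 ± 0.243 in meningeal libraries.

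In the last pair the 2 neighbours went opposite ways at low level. Col4a3 was at 0.935, 1.58, 0.809, 1.96 and 1.19 CPM in the cord against 0.428, 0.834, 0.350, 0.330 and 0.426 CPM in the meninges and rose (1.45 ± 0.36, adjusted p = 0.00497), with 1 spinal library inside the meningeal range. Col4a4 was at 0.760, 0.219, 0.809, 0.196 and 0.207 against 1.82, 3.14, 2.33, 2.93 and 3.09 CPM and fell (-2.56 ± 0.42, 2.77e-04). The multiplexins fell as well: Col15a1 from a meningeal mean of 149 ± 38.9 CPM to 19.9 ± 8.05 (-2.91 ± 0.29) and Col18a1 from 1433 ± 287 to 406 ± 109 CPM (-1.82 ± 0.21).

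All 8 genes of the fibrillar class fell, each with no overlap between the groups. Col1a2 was at 599, 393, 407, 228 and 213 CPM in spinal batches 1 to 5 against 4116, 3860, 4105, 5656 and 5743 CPM in the meningeal ones (-3.67 ± 0.30, adjusted p = 1.28e-06), and Col3a1 at 1126, 904, 958, 553 and 495 against 6144, 5800, 5821, 9028 and 8981 CPM (-3.15 ± 0.28, 1.95e-06). Col1a1 fell less than its partner chain, from 2558, 2614, 2992, 3459 and 3557 to 570.2, 665, 352, 528 and 464 CPM (-2.56 ± 0.19). Type I collagen normally holds more of the first chain than of the second. The per-length ratio of Col1a1 to Col1a2 was 0.588 ± 0.0455 in meningeal libraries (0.551 to 0.657) and 1.44 ± 0.608 in spinal ones (0.782 to 2.09). The 2 ranges do not overlap.

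Within type V the chains also parted. Col5a1 fell by more (-2.62 ± 0.21) than Col5a2 (-1.52 ± 0.19), and their ratio per length was 0.474 ± 0.132 in spinal and 1.02 ± 0.0932 in meningeal libraries. Col24a1 (-2.0 ± 0.21), Col27a1 (-0.98 ± 0.23) and Col5a3 (-0.75 ± 0.18) completed the class.

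**Figure D3:**
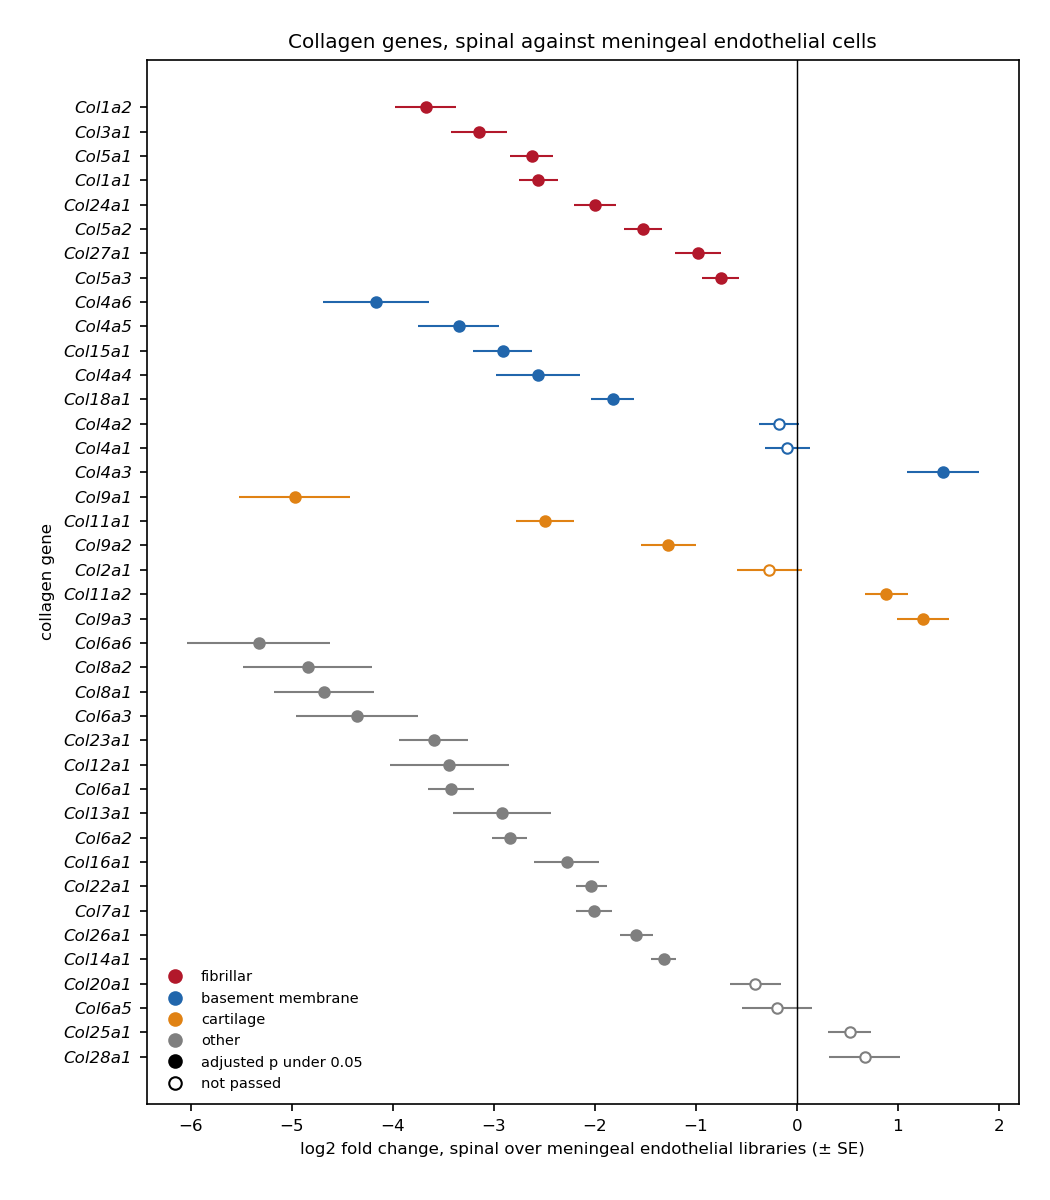
Log2 fold change of each of the 40 collagens tested, spinal over meningeal endothelial libraries (points, edgeR; bars, SE; filled where the adjusted p is under 0.05), by class. Nearly all points lie left of 0, and Col4a3, Col9a3 and Col11a2 are the filled points to its right. Col4a1 (-0.09) and Col4a2 (-0.18) are open points a little left of 0.

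The cartilage genes split by chain again. Col9a1 was at 5.96, 0.874, 3.91, 0.392 and 0.879 CPM in the spinal libraries against 81.2, 49.7, 65.3, 91.3 and 93.7 CPM (-4.97 ± 0.55, adjusted p = 1.25e-05). Col9a3 was at 18.6, 8.36, 13.7, 13.4 and 10.2 against 5.30, 3.14, 7.41, 4.63 and 6.45 CPM and rose (1.25 ± 0.26, 0.00152), the only collagen with every spinal library above every meningeal one. Here reads were counted by strand, and Tcfl5 was at 0.501 CPM on average in the cord and 1.49 CPM in the meninges. Col9a2 fell (-1.27 ± 0.27), so that Col9a3 to Col9a2 per length was 1.01 ± 0.204 in spinal and 0.166 ± 0.0387 in meningeal libraries. Col11a2 rose (0.89 ± 0.21, 0.00401), Col11a1 fell (-2.50 ± 0.29) and Col2a1, at 227, 89.6, 258, 85.3 and 78.3 against 174, 160.1, 198, 165 and 195 CPM, did not pass (-0.27 ± 0.32, 0.512). In batches 4 and 5 alone Col2a1 was at -1.15 (5.96e-07, up to 0.856 over the alternatives), and in batches 1 to 3 at 0.09. Beside these rises, 5 of 5 radial glia and 8 of 8 neuronal markers were higher in spinal libraries, with the neuronal ones summing to 935 to 2136 against 215 to 582 CPM. Cartilage markers summed to 86.8 to 217 against 40.1 to 44.3 CPM (3 of 6 higher, 3 lower), with Sox9 at 82.3, 41.4, 93.0, 35.5 and 38.8 against 11, 9.49, 13.2, 9.49 and 9.81 CPM, and markers of glia and Schwann cells to 479 to 884 against 171 to 246 CPM (1 of 7 higher, 4 lower). The part of such cells was not tested.

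Among the other collagens 14 of 18 fell and none rose. Type VIII was among the lowest: Col8a2 was at 9.24, 0.382, 5.84, 1.63 and 0.569 CPM against 86.4, 71.5, 115, 105 and 131 CPM (-4.84 ± 0.64, adjusted p = 5.05e-05) and Col8a1 fell by a similar size (-4.68 ± 0.49). Col6a6 had the widest gap of all (-5.33 ± 0.71), but its size rests on few spinal reads. It had 72, 1, 17, 2 and 8 counts in spinal batches 1 to 5 against 478 to 1239 in the meningeal ones. The 3 core chains of type VI fell by unequal amounts, Col6a3 from 732, 1011, 915, 1046 and 1133 to 108, 16.4, 81.3, 17.6 and 12.8 CPM (-4.35 ± 0.60), Col6a1 by 10.7 times (-3.43 ± 0.23) and Col6a2 by 7.18 times (-2.84 ± 0.17). Col12a1 fell from 319, 625, 456, 466 and 498 to 81.0, 15.2, 95.3, 13.5 and 12.8 CPM (-3.44 ± 0.59, 4.16e-04). Col23a1 (-3.59 ± 0.34), Col13a1 (-2.92 ± 0.49), Col16a1 (-2.28 ± 0.32), Col22a1 (-2.03 ± 0.15), Col7a1 of anchoring fibrils (-2.01 ± 0.18), Col26a1 (-1.59 ± 0.16) and Col14a1 (-1.31 ± 0.12) also fell. Col25a1, at 9.35, 12.1, 8.80, 7.25 and 8.33 against 5.94, 4.49, 5.48, 6.37 and 9.54 CPM, did not pass (0.52 ± 0.21, 0.0587). It passed, as higher, with DESeq2 (0.52, 0.047), without spinal batch 4 (0.58, 0.0455) or meningeal batch 5 (0.71, 0.0106) and in batches 1 to 3 (0.89, 0.012), and was at -0.03 in batches 4 and 5 (adjusted p = 0.906, the highest of the alternatives).

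Markers of fibroblasts moved with these falls. All 13 mesenchyme and meningeal fibroblast markers were lower in spinal libraries (median log2 fold change -3.51), summing to 481 to 694 CPM against 3834 to 4749 CPM, and none was at 0 in any spinal library, the lowest being Slc6a13 at 17.2, 0.273, 9.43, 0.522 and 0.259 CPM. Endothelial markers were higher in the cord in 7 of 10, with sums of 1625 to 3610 against 860.1 to 1782 CPM. Mural markers, of the cells around vessels, were higher in 6 and lower in 3 of 9. Their sums were 3618 to 9072 CPM in spinal and 1387 to 1853 CPM in meningeal libraries, with no overlap. The part of fibroblasts and mural cells in the collagen levels was not tested. Of 58 collagen pathway genes tested, 30 fell and 12 rose, where 23% of all genes tested fell and 24.8% rose. The proteinase Mmp2 (-2.31 ± 0.13), Creb3l1 (-3.66 ± 0.22), Loxl1 (-4.17 ± 0.26), Ctsk (-3.70 ± 0.26), Ddr2 (-2.53 ± 0.19) and the C-proteinase enhancer Pcolce (-1.92 ± 0.16) fell. The gelatinase Mmp9 (3.79 ± 0.27) and Adgrg1, a receptor for type III collagen (3.55 ± 0.26), rose. Serpinh1 stood at 1160 ± 229 against 1984 ± 241 CPM.

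The spinal libraries differed among themselves. A pattern noticed after the values were seen was that spinal batches 1 and 3 were the 2 highest of the 5 for 26 of the 40 collagens (65%), against 21% of all genes tested. This held for all 6 cartilage genes tested, 5 of 8 fibrillar, 3 of 8 basement membrane (Col4a4, Col4a5 and Col4a6) and 12 of 18 other genes. Col6a3 stood at 11.2, 1.69, 8.41, 1.82 and 1.33% of the meningeal mean in spinal batches 1 to 5, Col12a1 at 17.1, 3.22, 20.2, 2.86 and 2.71% and Col9a1 at 7.82, 1.15, 5.13, 0.514 and 1.15%. Among fibroblast markers Pdgfra stood at 13.4, 1.97, 9.20, 1.33 and 1.53% and Lum at 5.89, 0.252, 6.03, 0.155 and 0.123%, again highest in batches 1 and 3, whereas Foxc1 at 47.3, 65.4, 33.6, 41.8 and 45.3% had no such order. The same order held for 5 of 13 fibroblast, 4 of 5 radial glia, 4 of 7 glia and Schwann cell and 3 of 6 cartilage markers, and for 0 of 10 endothelial and 0 of 9 mural markers. Without batches 1 and 3 of both regions, an alternative chosen after seeing the data, 34 of 40 collagens passed, 31 of them lower, with a median of -2.48, where 36.1% of all genes passed (16.4% lower). Col4a1 (-0.13, adjusted p = 0.678) and Col4a2 (-0.20, 0.412) again did not pass, and Col2a1 did (-1.07, 0.00017). In the whole-cord batches 4 and 5 alone 37 of 39 passed, 34 of them lower, with a median of -2.81, where 53.8% of all genes passed (26.6% lower).

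**Figure D4:**
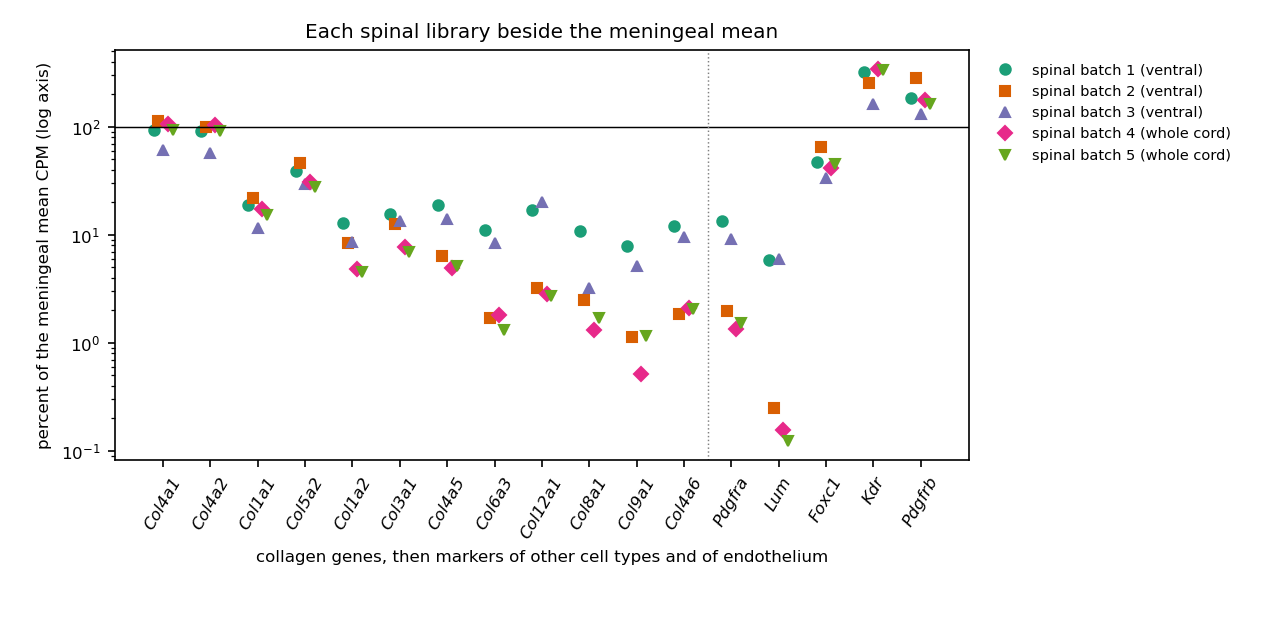
Level of 12 collagens and 5 markers in each spinal library as percent of the meningeal mean (log axis; the line is at 100%). Col4a1 and Col4a2 lie near 100% except in batch 3, at 61.2 and 57.4%. For Col6a3, Col12a1, Col9a1, Col4a6, Pdgfra and Lum batches 1 and 3 stand above the other 3 batches.

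The third comparison asked whether the gap between cord and meninges differed between the batches with ventral cord and those with whole cord. It did for 6 of 42 collagens, all with a smaller gap in the ventral batches, where 0.547% of all genes passed (0.14% in that direction, 0.408% in the other). The values above 0 were 40 of 42, with a median of 1.03 against 0.06 over all genes. Col3a1 was at 1126, 904, 958, 553 and 495 CPM in spinal batches 1 to 5, so the 3 ventral libraries lay above both whole-cord ones, while meningeal batches 4 and 5 were the highest of theirs (6144, 5800, 5821, 9028 and 8981 CPM). The difference between the 2 gaps was 1.56 ± 0.24 for Col3a1 (edgeR adjusted p = 0.038), 1.61 ± 0.28 for Col1a2 (0.0447), 1.53 ± 0.28 for Col11a1 (0.0482), 1.19 ± 0.20 for Col6a1 (0.0447), 1.17 ± 0.21 for Col5a1 (0.0482) and 0.92 ± 0.15 for Col22a1 (0.0435).

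These calls were close to the threshold. With batch as a block none passed, where 0.0223% of all genes did (adjusted p = 0.0808 to 0.101 for the 6). None passed without spinal batch 1, 4 or 5 or without meningeal batch 2, 3, 4 or 5 either, while 22 passed without spinal batch 2, where 6.67% of all genes did, and over all alternatives the adjusted p of the 6 ran from 3.08e-12 to 0.227. Dissection and batch cannot be told apart here. Of the 13 fibroblast markers 1 passed in the same direction (median 1.26), and their part was not tested.

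The fourth comparison set Plxnd1 knockout against wild-type endothelial cells of the knockout series. Without a block no collagen passed (0 of 43, 0% of 18209 genes). Of the 43, 6 had an unadjusted p under 0.05, where 2.37% of all genes had. DESeq2 called none, where 0.152% of all genes passed. With batch as a block, since the labels number the libraries by batch, 6 collagens rose and none fell, where 0.989% of all genes passed (0.763% rose, 0.225% fell); the block leaves 1 residual degree of freedom and takes up knockout batch 2, which has no wild-type partner, so the blocked values rest on batches 1 and 3. The 6 were Col2a1, Col9a1 and Col9a3 of the cartilage class and Col8a2, Col12a1 and Col14a1 of the others.

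Col2a1 stood at 177 and 297 CPM in wild-type batches 1 and 3 and 320.3, 449 and 459 CPM in knockout batches 1, 2 and 3 (blocked log2 fold change 0.74 ± 0.10, adjusted p = 2.12e-04). Col14a1, a collagen that binds fibrils, was at 71.6 and 92.8 against 115, 154 and 175 CPM (0.80 ± 0.10, 2.36e-05), and Col9a3 at 10.7 and 14.7 against 18.7, 37.8 and 29.4 CPM (0.91 ± 0.13, 3.48e-04). In each of these 3 genes all knockout libraries lay above both wild-type ones and each pair rose. With only 2 pairs, 25.0% of all genes were higher in every pair and 28.8% lower, against 17 and 7 of the 43 collagens. The blocked test rests on the same 2 pairs, so the agreement of the pairs adds no support. Col12a1 was at 251 and 306 against 312, 443 and 573 CPM (0.61 ± 0.12, 0.00919), Col9a1 at 60.2 and 73.6 against 80.5, 109 and 104 CPM (0.46 ± 0.09, 0.00924) and Col8a2 at 99.1 and 135 against 143, 177 and 179.8 CPM (0.47 ± 0.09, 0.00684), also with no overlap. Over the alternatives the adjusted p of the 6 ran from 8.91e-06 to 1. DESeq2 with the block, an alternative chosen after seeing the data, called 4 of them, without Col9a1 and Col8a2. It called 0.277% of all genes.

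**Figure D5:**
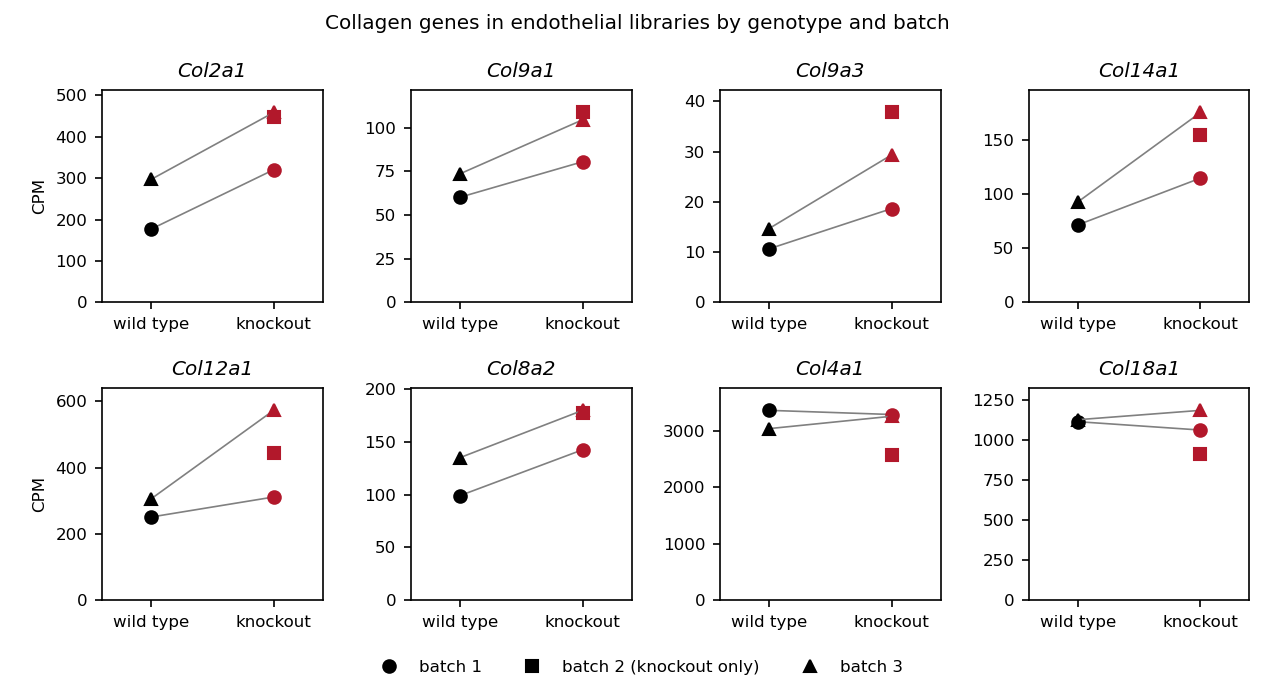
CPM of 8 collagens in the wild-type (black) and Plxnd1 knockout (red) endothelial libraries; lines join libraries of the same batch, and knockout batch 2 has no partner. The first 6 genes are higher in both pairs, as are 25.0% of all genes, and Col4a1 and Col18a1 are not.

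The vessel collagens gave no such picture. Basement membrane genes had a median of -0.12 without and -0.04 with the block, with Col4a1 at 3368 and 3043 against 3294, 2576 and 3263 CPM and Col18a1 at 1113 and 1126 against 1061, 913 and 1184 CPM, both overlapping. Col15a1 was at 232 and 187 against 205, 140.2 and 158 CPM. Fibrillar genes had a median of 0.03 without and 0.11 with the block, with Col3a1 at 5988 and 5903 against 5531, 5486 and 6688 CPM and Col1a1 at 2821 and 2912 against 3433, 2972 and 3835 CPM, the knockout above wild type in each library of the latter. Cartilage genes had all 6 of those tested above 0, with a median of 0.48, and the other class had 11 of 21 above 0 and a median of 0.03. Groups did not overlap, knockout above, in 10 of 43 collagens against 5.87% of all genes, and knockout below in 1 (Col6a5) against 7.98%.

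Cartilage markers passed, like the cartilage collagens, only with the block. Without it 0 of the 7 tested passed (median 0.69), and with it 4 rose (median 0.74). Their 9-gene sum was 73.4 to 125 CPM in wild-type against 121 to 195 CPM in knockout libraries, so the ranges overlapped. Its highest member was Sox9, a transcription factor of cartilage and of neural progenitors, at 28.4 and 57.1 against 53.6, 67.8 and 85.3 CPM, while Acan, the main cartilage proteoglycan, was at 0.569 and 0.144 against 1.11, 4.14 and 2.41 CPM, and Snorc was at 0 in 3 of the 5 libraries. Of the other lists, 2 of 7 markers of glia and Schwann cells, 1 of 5 of radial glia, 1 of 9 mural and 1 of 8 motor neuron markers rose with the block, and 1 of 10 endothelial, 1 of 13 fibroblast and 2 of 5 red cell markers fell. The part of such cells in the 6 rises was not tested. Of the 58 collagen pathway genes none passed without the block and 4 rose with it, where 0.763% of all genes rose. These were the thrombospondins Thbs1 (1.44 ± 0.16) and Thbs2 (0.65 ± 0.13), the fibril-binding Fmod (0.74 ± 0.10) and the prolyl hydroxylase P4ha2 (0.75 ± 0.16).

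In motor neurons no collagen passed between knockout and wild type, with or without the block (0 of 40, where 0.012% of all genes passed without and 0.0359% with it). DESeq2 called none, where 0.0119% of all genes passed. In edgeR without the block 1, Col6a2, had an unadjusted p under 0.05, where 1.14% of all genes had. With the block 7 of 40 had, where 5.8% of all genes did. Without wild-type batch 1, unblocked, 9 of 41 had, where 1.14% of all genes did. Col9a3, their leading collagen, was at 74.3, 55.7 and 107 CPM in the wild-type libraries against 59.5, 50.6 and 77.0 CPM, and Col11a2 at 49.0, 42.6 and 54.1 against 57.4, 55.4 and 44.9 CPM, with overlapping groups. Within batches, Col9a3 was lower in the knockout in all 3 pairs, while Col11a2 was higher in 2 and lower in 1. In all, 10 of the 40 collagens were higher in every pair, where 13.5% of all genes were, among them Col6a1, Col6a2, Col6a3, Col8a1, Col12a1 and Col14a1, and 2, Col9a3 and Col22a1, were lower in every pair, where 11.6% of all genes were. Col12a1 alone did not overlap, at 7.61, 4.08 and 5.61 against 8.29, 7.66 and 8.01 CPM, where 2.34% of all genes lay wholly above. The batches did not move alike: of the 8 basement membrane genes 0 were above wild type in batch 1, 6 in batch 2 and 7 in batch 3, and of the 8 fibrillar genes 1, 8 and 6. Knockout batch 1 stood apart by the liver gene Alb at 466 CPM. Without this library again no collagen passed and none had an unadjusted p under 0.05, where 1.48% of all genes had.

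An interaction term compared the knockout effect of endothelial cells with that of motor neurons, and no collagen passed (0 of 43; 0% of 19266 genes). DESeq2 called none, where 0.00265% of all genes passed. In edgeR 3 collagens, Col9a3, Col11a1 and Col20a1, had an unadjusted p under 0.05, where 1.83% of all genes had. With batch as a block, the fit in which the 6 rises passed, 0 of 43 collagens passed for the interaction too, where 0% of 19266 genes did. In that edgeR fit 4 collagens had an unadjusted p under 0.05, where 2.57% of all genes had. The rises of the 6 collagens in endothelial cells were therefore not shown to differ from motor neurons.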

How the data were processed

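Sorted-cell RNA was sequenced in 22 libraries, of which 21 were used. The deposited values are raw gene counts made by the authors with featureCounts 1.6.4 against GENCODE M22 on GRCm38, per the file headers: single reads without regard to strand in the knockout series, and read pairs on the reverse strand in the regional series. Trimmomatic 0.39 and STAR 2.5.3a are named in the submitters' processing notes.

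Members and lists were chosen with earlier results of these data known. Levels are CPM after TMM scaling; levels between genes are per kilobase of exon. Tests used edgeR 4.0.16 (quasi-likelihood, filterByExpr with a minimum count of 10, R 4.3.3) with Benjamini-Hochberg adjustment over all genes tested and a threshold of 0.05; SE is the log2 fold change over the square root of F. Cell type and interaction were fitted on all knockout-series libraries, the other comparisons on their own groups. The code was tested on simulated counts.

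Named genes were 18 fixed collagens in each comparison, and every other member that passed, up to 12 in each direction by size of change; others named, such as Col4a3, Col6a5 and Col20a1, were chosen after their values were seen. Libraries share numbers that the labels call batches, so these pair them; same-batch libraries correlated, over genes, at r = 0.568 and 0.656 in endothelial cells, 0.286 to 0.482 in motor neurons and -0.361 to 0.345 in the regional series. Alternatives were batch as a block, DESeq2 1.42.0, RLE scaling, other filters, and leaving out each library.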

Additional observations from a re-analysis of the deposited data

Results flagged for a closer look

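In 92 checks of a group of 5 libraries, 6 had a library far from the others, where chance flags about 1 in 20 groups. Single collagens of the cord were among them: Col4a2 at 1652 CPM in spinal batch 3, Col8a1 at 15.7 CPM in spinal batch 1 and Col6a6 at 4.21 CPM in spinal batch 1. The summed basement membrane class was at 4970 CPM in spinal batch 3, which Col4a1 and Col4a2 make up for the most part. In meningeal batch 1 Col7a1 was at 57.7 CPM and the per-length ratio of Col6a3 to Col6a1 at 0.394.

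The gap between cord and meninges differed between ventral and whole-cord batches for 6 collagens: by 1.56 in Col3a1, 1.17 in Col5a1, 1.53 in Col11a1, 1.61 in Col1a2, 1.19 in Col6a1 and 0.92 in Col22a1 (log2). With batch as a block none of the 6 passed (adjusted p = 0.0808 to 0.101). Whether dissection or batch goes with this difference cannot be told apart.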

How the results depend on the processing

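Leaving out each library in turn gave 35 to 39 collagens called between cell types, 33 to 34 between cord and meninges, and 0 to 0 for both knockout comparisons and the interaction. The difference between ventral and whole-cord batches was the least stable: 0 calls with batch as a block, 12 with DESeq2, 22 without a filter on low counts and 0 to 22 when a library was left out, against 6. Calls over all genes moved too, from 0.547% to 5.85% with DESeq2, 5.44% without the filter and 6.67% without spinal batch 2. It was 0 without spinal batch 1, 4 or 5 or meningeal batch 2, 3, 4 or 5, and 22 without spinal batch 2; the cause was not tested. In the endothelial knockout the block gave 6 calls and the block in DESeq2 4, against 0, where 0.989%, 0.277% and 0% of all genes passed. The fits with a library left out had no block. Without the block even the fall of Plxnd1 did not pass (edgeR adjusted p = 0.161 in endothelial cells, 0.8 in motor neurons). The 0 calls of the knockout comparisons on leaving out a library therefore cannot show that collagens were unchanged. The 6 blocked rises were not refitted with a library left out. With library totals in place of TMM, the wild-type endothelial sums were 15452 CPM for fibrillar genes (14753 with TMM) and 3906 for the others (3730). Between cord and meninges, Col4a1 ran from -0.21 without meningeal batch 1 to 0.0397 without meningeal batch 4 (0.01 without spinal batch 3) and was 0.11 in batches 1 to 3, Col2a1 was 0.0905 in batches 1 to 3 and Col25a1 -0.0323 in batches 4 and 5. Beyond these, and Col25a1 and Col6a5 between cell types, the block changed no call of a collagen. With 2 wild-type endothelial libraries and collagens such as Col4a3, Col4a4 and Col6a4 at few CPM, small differences were not detectable.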
